A study of Oryza sativa Japonica Group with 8 samples.

Results

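Rice seedlings that carry a constitutively active phytochrome B were compared with wild-type seedlings, both grown in darkness. The comparison uses 4 of the 8 expression arrays of the series, chosen by their titles alone. The OsYHB dark group (Ubi::OsYHB/Nip, Dark) consists of 1 array of transgenic line 1 and 1 array of line 9. Per the labels these are independent, homozygous, single-insertion lines in the cultivar Nipponbare, in which the allele with the protein change Y283H is driven by the maize Ubiquitin promoter, to a level 41-fold (line 1) and 23-fold (line 9) over wild type. A constitutive promoter is active in most cells and at a level of its own, which limits the lines as a model of activated native phytochrome. The wild-type dark group (WT (Nipponbare), Dark) consists of 2 arrays of untransformed seedlings. All seedlings were 5 d old, had grown on MS medium at 28 °C, and were harvested above ground in the subjective morning, the dark ones under dim green light. The remaining arrays, 2 of OsYHB and 2 of wild type, come from seedlings kept in constant red light (50 µmol/m2/s); they share the fit and serve for comparison. The labels call the replicates biological. In OsYHB each replicate is a different line, so differences between lines and between replicates cannot be told apart. The p-values rest on a spread within groups that is pooled over all 8 arrays, those in red light included. The tissue is a mixture of cell types, so that fewer cells of a type and less RNA per cell cannot be told apart.

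Phytochromes are red and far-red light receptors whose active form moves into the nucleus, where it binds and removes transcription factors that maintain growth in the dark. In an etiolated grass seedling the coleoptile and mesocotyl elongate, plastids stay as etioplasts, and genes for photosynthesis are held low. Active phytochrome ends this programme, restrains elongation and starts the conversion of etioplasts to chloroplasts. The substitution in the OsYHB receptor is known to hold it in a signalling form without light, so the dark comparison asks what the receptor does to transcripts in the absence of its stimulus.

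Over 57194 probe sets, log2 intensities correlated at 0.995 between the 2 OsYHB dark arrays and at 0.992 between the 2 wild-type dark arrays. The leaf gene RBCS, of the small subunit of Rubisco, was bright in both groups. It was at 15930 and 15680 in OsYHB darkness, against 11920 and 11460 in wild-type darkness. RBCS1, of the same family, was dim, at 4.6 and 5.7 in OsYHB darkness, against 3.8 and 4.2 in wild-type darkness. The Casparian strip gene OsCASP1, a root marker, was dim at 10 and 13.0 in OsYHB darkness, against 13.2 and 11.8 in wild-type darkness. Lsi1, another root marker, was brighter, at 568.4 and 642.6 in OsYHB darkness, against 943.1 and 655.2 in wild-type darkness. The transcript probed as PHYB1 was not called, at 803 and 1051 in OsYHB darkness, against 1334 and 923.2 in wild-type darkness (log2 -0.27, SE 0.20, adjusted p = 0.395). The sources used here do not say which part of the transcript is probed or whether the transgene holds it, so it does not check the genotype. A reporter probe set on the array, left out of the tests, had log2 intensities of 13.18 and 12.90 in OsYHB darkness, against 3.02 and 2.85 in wild-type darkness.

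The transcriptome differed widely between the genotypes in darkness. With limma and Benjamini-Hochberg adjustment at 0.05, 9713 probe sets were called, 17% of those tested, of which 4404 (7.7%) were higher and 5309 (9.28%) lower in OsYHB. The count was 5468 with line 1 left out of the fit, 3644 with line 9 left out and 4885 with the 4 dark arrays alone. The OsYHB and wild-type dark arrays did not overlap in any called probe set, which was also so for 56.0% of all probe sets tested. The median change of those called was 0.86 among the higher and -0.69 among the lower on the log2 scale. Changes of at least 1 on the log2 scale, a doubling, were reached by 1775 higher and 1268 lower probe sets, and changes of at least 5 by 15 higher and 14 lower ones. Counted by gene, with each gene represented by its brightest probe set, 1907 of 17905 genes were higher (10.7%) and 3099 lower (17.3%). Among the 2457 genes with a name these shares were 10.5% and 19.5%. The median change of all genes was -0.17, and that of all probe sets 0.005. Probe sets without an annotated gene, which here include the 95 annotated to several genes, made up 47.7% of the higher calls. Their share was 31.8% of the lower calls and 60.8% of all probe sets. The called genes lay on all 12 nuclear chromosomes, with 8.48% to 11.7% of a chromosome's genes higher and 16.4% to 18.5% lower.

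**Figure D1:**
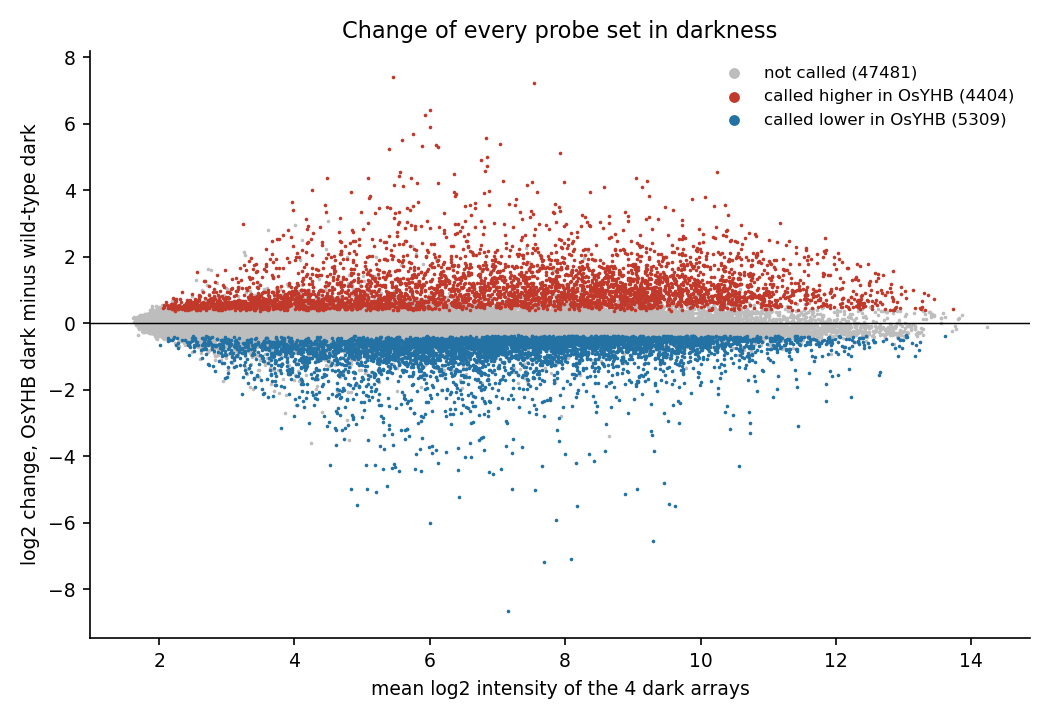
Change of each of the 57194 probe sets in darkness (vertical axis, mean log2 intensity of the 2 OsYHB dark arrays minus that of the 2 wild-type dark arrays) against the mean log2 intensity of the 4 dark arrays (horizontal axis). Red points are the 4404 called higher in OsYHB, blue points the 5309 called lower and grey points those not called; changes beyond 5 occur on both sides.

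The counts depended on which arrays entered the fit. Leaving an OsYHB dark array out of the fit leaves 1 array in that group, which is then assumed to vary like the other groups. Without line 1 the genes called were 1395 higher and 1572 lower, without line 9 they were 1114 and 858, without wild-type array 1 they were 1626 and 2164, without wild-type array 2 they were 1895 and 3148, and with the 4 dark arrays alone they were 1381 and 1322. In what follows, "without line 9" and the like mean the same fit without that dark array. For 985 called genes with several probe sets on the array, 1104 of the other 1294 probe sets changed in the same direction, 581 of them called, and 21 were called in the other direction.

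The genes with a name that rose most serve very different processes. PDX12, of the vitamin B6 synthesis family, had intensities of 1332 and 1552 in OsYHB darkness, against 28.4 and 59.8 in wild-type darkness (log2 5.12, SE 0.29, adjusted p = 4.41e-05). Next came CFBP1, a cytosolic fructose-1,6-bisphosphatase of sucrose synthesis, at 2435 and 2807 in OsYHB darkness, against 134.5 and 134.1 in wild-type darkness (log2 4.28, SE 0.13, adjusted p = 8.47e-06). BGLU22, of the beta-glucosidase family, stood at 96 and 177.5 in OsYHB darkness, against 9.2 and 9.3 in wild-type darkness (log2 3.82, SE 0.36, adjusted p = 0.000343). In each of these genes both lines lay far above both wild-type arrays, by more than 3 on the log2 scale. The aquaporin gene PIP2-7 was at 2252 and 2510 in OsYHB darkness, against 150.9 and 298.6 in wild-type darkness (log2 3.49). MADS56, a MADS-box gene related to flowering regulators, was at 202.2 and 94.4 in OsYHB darkness, against 13.7 and 11.2 in wild-type darkness (log2 3.48). RIBA3, of riboflavin synthesis, was at 826.7 and 1076 in OsYHB darkness, against 102 and 106.4 in wild-type darkness (log2 3.18, SE 0.15, adjusted p = 2.3e-05). BBD1, of the bifunctional nuclease family, was at 2539 and 3162 in OsYHB darkness, against 400.7 and 564.2 in wild-type darkness (log2 2.58). All of these kept their call without any single array.

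Further large rises were those of peroxisomal, redox and metabolic genes. PEX11-4, of a family that controls peroxisome division, was at 1877 and 2085 in OsYHB darkness, against 307.1 and 385.1 in wild-type darkness (log2 2.52, SE 0.16, adjusted p = 6.01e-05). SNAT2, a serotonin N-acetyltransferase of melatonin synthesis, was at 538.9 and 615.5 in OsYHB darkness, against 105 and 95.5 in wild-type darkness (log2 2.52). SPO11-3, of the family of the topoisomerase VI subunit A, was at 540.4 and 658.1 in OsYHB darkness, against 109.2 and 123.5 in wild-type darkness (log2 2.36). MSRB1, a methionine sulfoxide reductase, was at 1047 and 1345 in OsYHB darkness, against 175.9 and 259.9 in wild-type darkness (log2 2.47). The values of the 2 lines lay close together in these genes compared with their distance from wild type. BURP16, of the BURP-domain family, and the CASP-like gene OsCASPL1U2 also rose, but with less certainty. BURP16 was at 1438 and 438.1 in OsYHB darkness, against 190.9 and 125.4 in wild-type darkness (log2 2.36, SE 0.51, adjusted p = 0.0175), and its adjusted p was 0.0545 to 0.0701 without wild-type array 2 or line 1 and with the 4 dark arrays alone or an intensity trend. OsCASPL1U2 was at 181.4 and 269.4 in OsYHB darkness, against 63.5 and 25.3 in wild-type darkness (log2 2.46, SE 0.42, adjusted p = 0.00613), with an adjusted p of 0.0582 without line 9.

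Among the genes with a name that fell most, several act on hormones or in development. ILL3, which encodes an auxin conjugate hydrolase, was at 17.4 and 16.8 in OsYHB darkness, against 2962 and 2089 in wild-type darkness, a fall of 7.18 on the log2 scale (SE 0.29, adjusted p = 1.57e-05). GH3.2, whose enzyme conjugates auxin to amino acids, was at 7.6 and 10 in OsYHB darkness, against 302.5 and 107.8 in wild-type darkness (log2 -4.37, SE 0.40, adjusted p = 0.000319). OSH1, a KNOX homeobox gene of the shoot meristem, was at 9.3 and 6.2 in OsYHB darkness, against 181.4 and 119.1 in wild-type darkness (log2 -4.27). HOS9, another homeobox gene, was at 12 and 8.7 in OsYHB darkness, against 345.1 and 107.3 in wild-type darkness (log2 -4.24). In these genes the OsYHB arrays were at or near the dim end of the scale, where a fold change can be compressed by background. The transporter gene ABCG45 was at 29.2 and 17.8 in OsYHB darkness, against 383.1 and 359.6 in wild-type darkness (log2 -4.03). The lipid transfer protein gene LTP-2 was at 16 and 17.8 in OsYHB darkness, against 248.2 and 258.3 in wild-type darkness (log2 -3.91, SE 0.12, adjusted p = 8.47e-06). ADC2, an arginine decarboxylase of polyamine synthesis, was at 38.2 and 25.9 in OsYHB darkness, against 312.2 and 415.4 in wild-type darkness (log2 -3.52, SE 0.25, adjusted p = 9.99e-05). The metallothionein gene MT-1-4b was at 44.8 and 45.2 in OsYHB darkness, against 581.8 and 438.1 in wild-type darkness (log2 -3.49, SE 0.21, adjusted p = 5.14e-05). PSK2, a precursor of the growth peptide phytosulfokine, was at 265.9 and 150 in OsYHB darkness, against 1885 and 1915 in wild-type darkness (log2 -3.25, SE 0.30, adjusted p = 0.000343). OsC3H35, of the CCCH zinc finger family, was at 224.5 and 167.2 in OsYHB darkness, against 2178 and 1830 in wild-type darkness (log2 -3.37, SE 0.23, adjusted p = 8.07e-05).

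The dehydrin gene RAB21 and the late embryogenesis gene LEA19 stood among the largest falls with the widest errors. RAB21 was at 25.4 and 24.4 in OsYHB darkness, against 696.1 and 445.8 in wild-type darkness (log2 -4.48, SE 1.07, adjusted p = 0.025). Its adjusted p was 0.0559 to 0.12 without either wild-type array or either line and with 16 added to each value or an intensity trend. LEA19 was at 9 and 7.7 in OsYHB darkness, against 218.2 and 117.5 in wild-type darkness (log2 -4.27, SE 1.12, adjusted p = 0.0354), with an adjusted p of 0.0523 to 0.154 without either wild-type array, either line or either line in red light and with 16 added to each value or an intensity trend. Both lines lay below both wild-type dark arrays in either gene, as in every probe set called lower. The group with the widest spread was wild-type red light, with 28.7 and 565.4 for RAB21 and 10.5 and 229.8 for LEA19. With the 4 dark arrays alone, limma gave an adjusted p of 0.00121 for RAB21 and 0.00197 for LEA19.

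**Figure D2:**
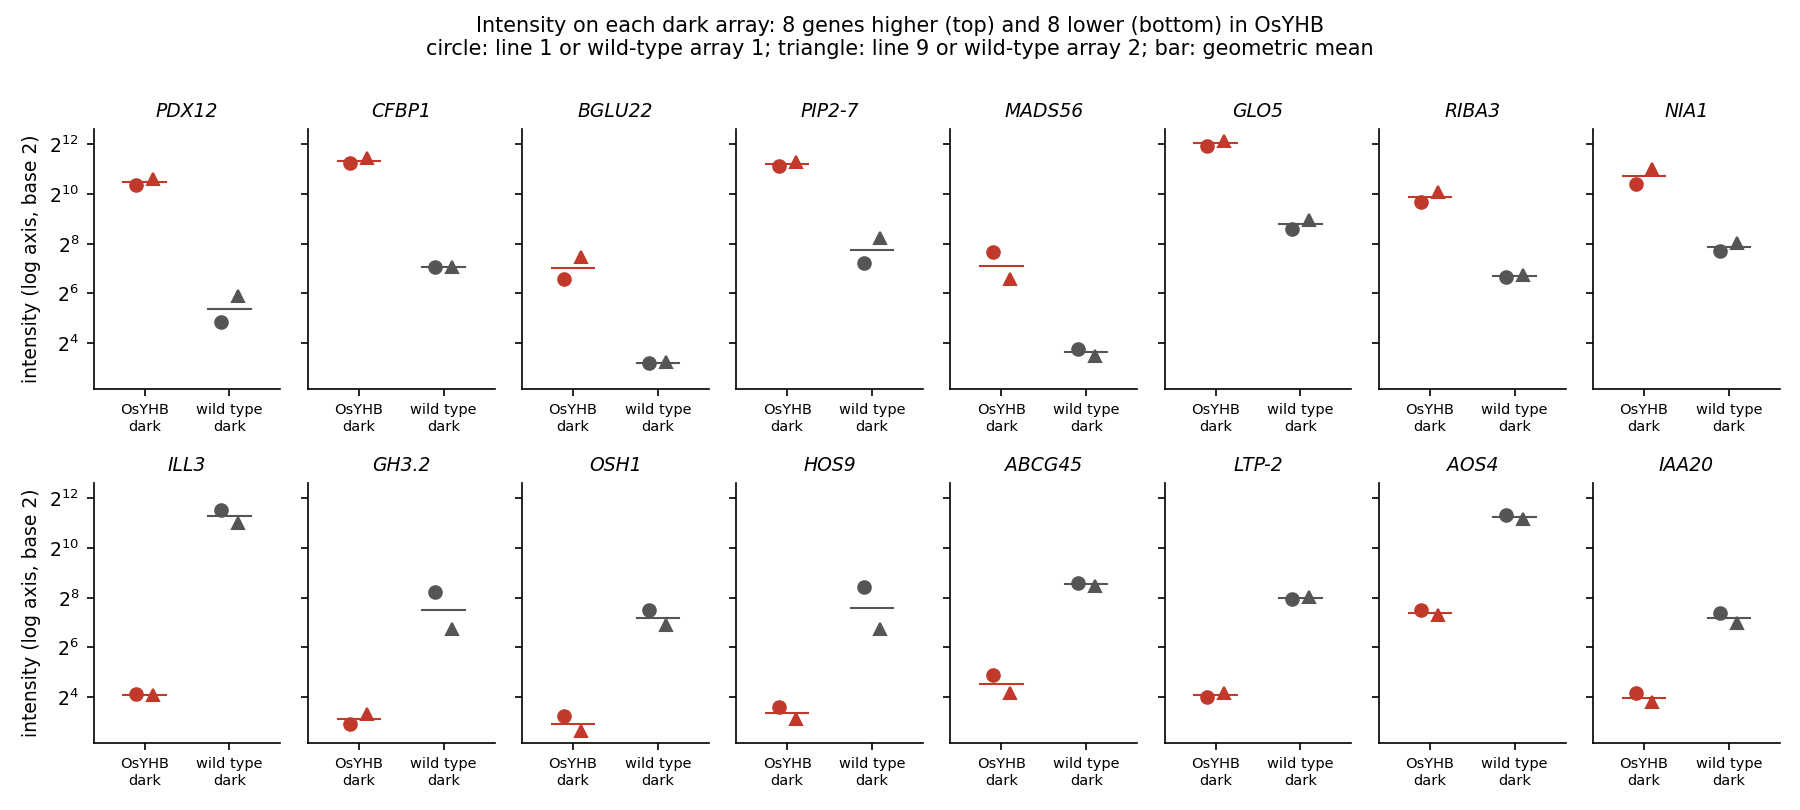
Intensity (log axis, base 2) of 16 genes with a name in each dark array, 8 called higher in OsYHB in the top row and 8 called lower in the bottom row. Circles are line 1 and wild-type array 1, triangles line 9 and wild-type array 2, and bars geometric means; in each panel the 2 OsYHB arrays and the 2 wild-type arrays do not overlap.

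Among genes of light perception, PHYA fell, and CRYD and PHOT2 rose. Of the 13 measured, 4 rose (30.8%, with a count of 2 without line 9) and 1 fell (7.69%). Over all genes 10.7% rose and 17.3% fell, and the share of each list is given beside its count below. The lists hold only genes with a name, of which 10.5% rose and 19.5% fell. PHYA, the phytochrome that accumulates in the dark, was at 1220 and 1146 in OsYHB darkness, against 3546 and 2858 in wild-type darkness (log2 -1.43, SE 0.13, adjusted p = 0.000331). The phyC transcript was not called, at 621.5 and 628.2 in OsYHB darkness, against 751.1 and 693.8 in wild-type darkness (log2 -0.21, adjusted p = 0.288). CRYD, a DASH cryptochrome, was at 298.8 and 367.1 in OsYHB darkness, against 69.5 and 63.1 in wild-type darkness (log2 2.32, SE 0.13, adjusted p = 4.7e-05). PHOT2, a phototropin, was at 1755 and 2085 in OsYHB darkness, against 1015 and 872.1 in wild-type darkness (log2 1.02, SE 0.14, adjusted p = 0.00187), while its relative PHOT1A was not called at 1826 and 2280 in OsYHB darkness, against 2509 and 1930 in wild-type darkness (log2 -0.11, adjusted p = 0.719). The photolyase gene, whose product repairs ultraviolet damage, was at 257.5 and 321.7 in OsYHB darkness, against 169.6 and 166.7 in wild-type darkness (log2 0.78, adjusted p = 0.00978). Its adjusted p was 0.0736 without line 9. Of the GLK factors, which drive chloroplast genes, GLK1 was at 1269 and 1805 in OsYHB darkness, against 983.7 and 980.1 in wild-type darkness (log2 0.62, adjusted p = 0.0394), with an adjusted p of 0.0559 to 0.193 without either wild-type array, either wild-type red-light array, line 9 or either line in red light and with the 4 dark arrays alone. GLK2 was not called (log2 0.22, adjusted p = 0.303). The haem oxygenase genes HO1 and HO2, of the pathway that makes the phytochrome chromophore, were not called either (log2 0.10, adjusted p = 0.663, and log2 0.29, adjusted p = 0.396). Without wild-type array 2, HO2 was called (log2 0.62, adjusted p = 0.0455). NPH3, a partner of phototropins, and XCT were not called, at log2 -0.35 (adjusted p = 0.173) and log2 -0.05 (adjusted p = 0.807).

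In the list of clock and flowering genes 8 of 19 rose (42.1%) and 2 fell (10.5%, with a count of 1 without line 1, 1 without line 9 and 1 without wild-type array 1), against 10.7% and 17.3% of all genes. The largest rise after MADS56 was that of PCL1, a component of the evening complex of the clock, at 3247 and 3493 in OsYHB darkness, against 493.7 and 1048 in wild-type darkness (log2 2.23, SE 0.29, adjusted p = 0.00179). LIR1, a gene named for its induction by light, was at 5672 and 7051 in OsYHB darkness, against 2296 and 2370 in wild-type darkness (log2 1.44, SE 0.13, adjusted p = 0.000316). Hd1, the rice counterpart of CONSTANS and a regulator of flowering time, was at 62.4 and 84.7 in OsYHB darkness, against 29.9 and 31.9 in wild-type darkness (log2 1.24, SE 0.16, adjusted p = 0.00165). Both lines lay above both wild-type arrays in all 3, as in every probe set called higher. MFT1, of the family of florigen, fell and was at 38.7 and 39 in OsYHB darkness, against 201.4 and 133.2 in wild-type darkness (log2 -2.08, SE 0.26, adjusted p = 0.00138). CCA1, a morning gene of the clock, was at 928.2 and 928 in OsYHB darkness, against 2330 and 1410 in wild-type darkness (log2 -0.97, adjusted p = 0.0215), with an adjusted p of 0.0557 to 0.108 without wild-type array 1 or either line and with the 4 dark arrays alone. The median change of the list was 0.14.

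Many genes that act in the plastid rose. Of the genes of the photosynthetic light reactions 13 of 16 rose (81.2%, median 1.13), against 10.7% of all genes and a median of -0.17. The summed intensity of these 16 genes was 112000 and 120100 in OsYHB darkness, against 58270 and 61320 in wild-type darkness. PSB28, which helps to assemble photosystem II, was at 2616 and 2598 in OsYHB darkness, against 667.5 and 764.5 in wild-type darkness (log2 1.87, SE 0.12, adjusted p = 7.47e-05). NDH-M, a subunit of the chloroplast NADH dehydrogenase-like complex, was at 799 and 980.9 in OsYHB darkness, against 197.6 and 235.2 in wild-type darkness (log2 2.04). The chlorophyll-binding protein gene CAB2R was at 12400 and 13060 in OsYHB darkness, against 6005 and 6743 in wild-type darkness (log2 1.00, SE 0.12). RCAA1, which encodes Rubisco activase, was at 10610 and 11120 in OsYHB darkness, against 3597 and 4482 in wild-type darkness (log2 1.44, SE 0.13).

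In carbon fixation and photorespiration 9 of 17 genes rose (52.9%), against 10.7% of all genes. The gene listed as FBPase, a fructose-1,6-bisphosphatase, was at 2701 and 3056 in OsYHB darkness, against 507.5 and 474 in wild-type darkness (log2 2.55, SE 0.12, adjusted p = 2.3e-05). GLO5, a glycolate oxidase of photorespiration, was at 3961 and 4480 in OsYHB darkness, against 390.3 and 498 in wild-type darkness (log2 3.26). GLO1, of the same family, was at 3123 and 3867 in OsYHB darkness, against 590.7 and 700 in wild-type darkness (log2 2.43). A second probe set of GLO1 was not called, at 415 and 436 in OsYHB darkness, against 570.3 and 462.5 in wild-type darkness (log2 -0.27, adjusted p = 0.244). GLO3 and GLO4, of the same family, were called lower (log2 -0.557, adjusted p = 0.0265, and log2 -0.565, adjusted p = 0.0343). With the 4 dark arrays alone their adjusted p was 0.0795 and 0.0736. In the same list 3 of 17 fell (17.6%, with a count of 1 without line 1, 0 without line 9, where 3 had an unadjusted p below 0.05, and 1 without wild-type array 1), against 17.3% of all genes. Of these, ME6, of the malic enzyme family, was at 934 and 1000 in OsYHB darkness, against 1617 and 1442 in wild-type darkness (log2 -0.66, adjusted p = 0.013). Its adjusted p was 0.0545 to 0.0724 without wild-type array 1 or either line.

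Chlorophyll genes rose in 13 of 20 cases (65%, median 0.76), against 10.7% of all genes. CHLH, the large subunit of magnesium chelatase, was at 2370 and 3285 in OsYHB darkness, against 1104 and 894.2 in wild-type darkness (log2 1.49, SE 0.18, adjusted p = 0.00109). A dimmer second probe set of CHLH was not called, at 101.1 and 88 in OsYHB darkness, against 117.7 and 135.6 in wild-type darkness (log2 -0.42, adjusted p = 0.0602). UPD1, a uroporphyrinogen decarboxylase of the tetrapyrrole pathway, was at 2175 and 2120 in OsYHB darkness, against 764.8 and 1125 in wild-type darkness (log2 1.21, SE 0.19, adjusted p = 0.00396). PORA, the protochlorophyllide oxidoreductase of etioplasts, went the other way, at 3132 and 3686 in OsYHB darkness, against 6625 and 6965 in wild-type darkness (log2 -1.0, SE 0.16, adjusted p = 0.00408). The stay-green gene SGR, which acts in chlorophyll breakdown, was at 142.8 and 168.8 in OsYHB darkness, against 520.1 and 297.1 in wild-type darkness (log2 -1.34, adjusted p = 0.0201), with an adjusted p of 0.0791 to 0.103 without wild-type array 1 or either line. In the carotenoid, tocopherol and plastid isoprenoid list 9 of 18 rose (50%, with a count of 4 without line 9 and 5 without wild-type array 1). The phytoene synthase gene PSY2 was at 1969 and 2102 in OsYHB darkness, against 312.7 and 395.1 in wild-type darkness (log2 2.53, SE 0.14, adjusted p = 4.24e-05). PSY3, of the same family, was lower, at 48.2 and 45.7 in OsYHB darkness, against 148.7 and 85.3 in wild-type darkness (log2 -1.26, SE 0.23, adjusted p = 0.00755). It was the 1 gene of the 18 called lower (5.56%), against 17.3% of all genes. ZEP, the zeaxanthin epoxidase that also supplies abscisic acid synthesis, was at 237.3 and 354.1 in OsYHB darkness, against 153.7 and 140.8 in wild-type darkness (log2 0.98, SE 0.18, adjusted p = 0.00956).

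The machinery that expresses and maintains plastid proteins rose in 21 of 48 genes (43.8%, with a count of 11 without line 1, 10 without line 9 and 12 without wild-type array 1), with a median of 0.41. Over all genes 10.7% rose. OsSig2B, a sigma factor of the plastid RNA polymerase, was at 465.7 and 540.8 in OsYHB darkness, against 148.3 and 159 in wild-type darkness (log2 1.71, SE 0.15, adjusted p = 0.000289). FTSH1 and FTSH9, of the FtsH family of membrane proteases, rose by 1.32 (SE 0.19, adjusted p = 0.00288) and 1.04 (SE 0.14, adjusted p = 0.00223) on the log2 scale. CLPD2, of the Clp ATPases, was at 226.6 and 353.6 in OsYHB darkness, against 117.8 and 102.4 in wild-type darkness (log2 1.37, SE 0.20, adjusted p = 0.00296). FTSH3, another member of the protease family, fell and was at 24.1 and 27.2 in OsYHB darkness, against 75 and 67.7 in wild-type darkness (log2 -1.48, SE 0.14, adjusted p = 0.000349). BASS5, of the bile acid/sodium symporter family, was also lower, at 185.9 and 189.8 in OsYHB darkness, against 366.7 and 294.8 in wild-type darkness (log2 -0.81, SE 0.14, adjusted p = 0.00676).

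Redox and vitamin genes joined these rises, in lists chosen with earlier results of these data known. Over all genes 10.7% rose and 17.3% fell. In the list of thioredoxins, glutaredoxins and antioxidant enzymes 21 of 74 rose (28.4%) and 8 of 74 fell (10.8%, with a count of 4 without line 1, 2 without line 9 and 3 without wild-type array 1), with a median of -0.01 that turned to 0.01 under quantile normalization. TRXM, a plastid thioredoxin, was at 3296 and 3838 in OsYHB darkness, against 1000 and 951.2 in wild-type darkness (log2 1.87, SE 0.12, adjusted p = 6.51e-05). OsTrx03, of the same superfamily, was at 1925 and 2450 in OsYHB darkness, against 471.9 and 618.3 in wild-type darkness (log2 2.01). APX8, an ascorbate peroxidase, was at 2954 and 3338 in OsYHB darkness, against 1074 and 828.8 in wild-type darkness (log2 1.73, SE 0.16, adjusted p = 0.000311). These genes were higher in both lines than in either wild-type array, as was every probe set called higher. OsNrx2, of the nucleoredoxin family, fell and was at 86 and 81.6 in OsYHB darkness, against 213.9 and 154.4 in wild-type darkness (log2 -1.12, SE 0.16, adjusted p = 0.00255). The glutathione S-transferase gene GST-I was at 246.9 and 247.4 in OsYHB darkness, against 643.5 and 491.7 in wild-type darkness (log2 -1.19, SE 0.20, adjusted p = 0.0053). In the list of vitamin synthesis 6 of 8 rose (75%, with a count of 3 without line 9). Besides PDX12 and RIBA3 these include panC, of pantothenate synthesis, at 401.9 and 371.5 in OsYHB darkness, against 196 and 167.7 in wild-type darkness (log2 1.09, SE 0.12, adjusted p = 0.000834).

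Genes of nitrate and ammonium assimilation rose in 6 of 26 cases (23.1%), against 10.7% of all genes. NIA1, a nitrate reductase, was at 1358 and 2068 in OsYHB darkness, against 208.6 and 260.7 in wild-type darkness (log2 2.84, SE 0.24, adjusted p = 0.000234). Fd-GOGAT, the ferredoxin-dependent glutamate synthase of leaves, was at 5713 and 6745 in OsYHB darkness, against 1346 and 1710 in wild-type darkness (log2 2.03, SE 0.15, adjusted p = 0.000127). GLT2, of the NADH-dependent glutamate synthases, was at 77.4 and 230.6 in OsYHB darkness, against 14 and 18.9 in wild-type darkness (log2 3.04, SE 0.42, adjusted p = 0.00223). Line 9 was above line 1 in GLT2, and both were above wild type. AMT2-1, an ammonium transporter, was at 223.1 and 264.4 in OsYHB darkness, against 50.5 and 45.7 in wild-type darkness (log2 2.34, SE 0.15, adjusted p = 6.31e-05).

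Sugar and starch genes moved in both directions. In sugar transport and cleavage 8 of 46 rose (17.4%, with a count of 4 without line 9) and 4 of 46 fell (8.7%, with a count of 1 without line 9 and 9 without wild-type array 2), against 10.7% and 17.3% of all genes. CIN4 and CIN1, both cell wall invertases, went opposite ways. CIN4 was at 162.2 and 191.3 in OsYHB darkness, against 49.2 and 60 in wild-type darkness (log2 1.70, SE 0.18, adjusted p = 0.00067). CIN1 was at 348.4 and 476.5 in OsYHB darkness, against 761.2 and 852.9 in wild-type darkness (log2 -0.98, SE 0.16, adjusted p = 0.00504). The sugar exporter genes SWEET2B and SWEET1B rose by 1.29 (SE 0.17, adjusted p = 0.00183) and 0.95 (SE 0.11, adjusted p = 0.00105) on the log2 scale. SPP2, a sucrose phosphate phosphatase, was at 1902 and 2058 in OsYHB darkness, against 945.4 and 1069 in wild-type darkness (log2 0.98, SE 0.12, adjusted p = 0.00134). The alpha-amylase gene RAmy3D, known to be repressed by sugar in rice cells, was at 61.8 and 104.7 in OsYHB darkness, against 19.2 and 13.6 in wild-type darkness (log2 2.32, SE 0.26, adjusted p = 0.000876). AGPS2, the small subunit of the enzyme that commits glucose to starch, was at 2394 and 2526 in OsYHB darkness, against 1436 and 1359 in wild-type darkness (log2 0.82, SE 0.12, adjusted p = 0.00299). In the trehalose, starch and amylase list 7 of 24 rose (29.2%, with a count of 3 without line 1, 3 without line 9, 3 without wild-type array 1 and 4 without wild-type array 2) and 3 of 24 fell (12.5%, with a count of 1 without line 9 and 1 without wild-type array 1).

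Of the hormone genes called, most were lower in OsYHB. Auxin genes fell in 34 of 72 cases (47.2%, median -0.47), against 17.3% of all genes. The count was 18 without line 9 and 22 without wild-type array 1. Besides ILL3 and GH3.2, the Aux/IAA repressor genes IAA20 and IAA9 fell. IAA20 was at 17.9 and 13.9 in OsYHB darkness, against 167.1 and 125.6 in wild-type darkness (log2 -3.199, SE 0.17, adjusted p = 4.03e-05). IAA9 was at 27.6 and 18.2 in OsYHB darkness, against 142.9 and 79.9 in wild-type darkness (log2 -2.25, SE 0.31, adjusted p = 0.00232). SAUR39, of the small auxin-up RNAs, was higher, at 397.8 and 451.7 in OsYHB darkness, against 178 and 69.2 in wild-type darkness (log2 1.93, adjusted p = 0.0172). Its adjusted p was 0.0673 without line 1 and 0.105 without line 9. RAA1, a root architecture gene responsive to auxin, was among the genes in which the lines differed most, at 55.5 and 21.6 in OsYHB darkness, against 150.7 and 103.2 in wild-type darkness (log2 -1.85, adjusted p = 0.0326). Its adjusted p was 0.0507 to 0.176 without either wild-type array or line 9 and with the 4 dark arrays alone or an intensity trend.

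Brassinosteroid and strigolactone genes fell in 12 of 27 cases (44.4%), against 17.3% of all genes. The count was 5 without line 1 and 4 without line 9. The receptor gene BRI1 was at 859.3 and 793.9 in OsYHB darkness, against 2025 and 1561 in wild-type darkness (log2 -1.11, SE 0.16, adjusted p = 0.00258). Its relative BRL1 was at 5.2 and 5.6 in OsYHB darkness, against 23.7 and 11.7 in wild-type darkness (log2 -1.63, SE 0.28, adjusted p = 0.00605). BU1, a helix-loop-helix gene of brassinosteroid signalling, was at 66.9 and 60 in OsYHB darkness, against 176.2 and 157.6 in wild-type darkness (log2 -1.40, SE 0.13, adjusted p = 0.000337). Gibberellin genes fell in 4 of 17 cases (23.5%, with a count of 2 without line 9). Of these, GA20OX2, a gibberellin 20-oxidase known as the semidwarf gene, was at 59.5 and 38.4 in OsYHB darkness, against 187.6 and 143.2 in wild-type darkness (log2 -1.78, SE 0.28, adjusted p = 0.00404). SLR1, the DELLA repressor of gibberellin responses, was at 511.9 and 524.1 in OsYHB darkness, against 935.9 and 815.7 in wild-type darkness (log2 -0.75, SE 0.12, adjusted p = 0.00395), and KAO, of gibberellin synthesis, rose and was at 488.1 and 370.9 in OsYHB darkness, against 230.7 and 220.1 in wild-type darkness (log2 0.92, SE 0.16, adjusted p = 0.00694). The cytokinin list had 6 of 32 lower (18.8%, with a count of 2 without line 9), a share near the 17.3% of all genes. Of these, the cytokinin oxidase CKX5 was at 45.3 and 61.2 in OsYHB darkness, against 147.5 and 162.4 in wild-type darkness (log2 -1.56, SE 0.19, adjusted p = 0.00118). LOG, whose enzyme activates cytokinin, was higher, at 362.2 and 504.7 in OsYHB darkness, against 142.1 and 137 in wild-type darkness (log2 1.62, SE 0.17, adjusted p = 0.000557). The LOG-like gene LOGL10 was lower, at 162.8 and 121.4 in OsYHB darkness, against 453.7 and 349.8 in wild-type darkness (log2 -1.50, SE 0.18, adjusted p = 0.00104).

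Genes of the stress hormones followed in part. In the abscisic acid and late embryogenesis list 19 of 33 fell (57.6%, median -0.66). Over all genes 17.3% fell and 10.7% rose. The count was 11 without line 1 and 11 without line 9. Type 2C protein phosphatases include repressors of abscisic acid signalling. Of this family, PP2C68 was at 8.5 and 8.2 in OsYHB darkness, against 66.6 and 31.2 in wild-type darkness (log2 -2.45, SE 0.30, adjusted p = 0.00141). OsPP2C09 was at 109.4 and 123.9 in OsYHB darkness, against 857.2 and 495.4 in wild-type darkness (log2 -2.48, SE 0.27, adjusted p = 0.000684). SAPK1, a kinase of the family these phosphatases act on, rose and was at 452.2 and 480.9 in OsYHB darkness, against 232.1 and 141.9 in wild-type darkness (log2 1.36, SE 0.21, adjusted p = 0.00395). Within the phosphatase list 14 of 55 fell (25.5%, with a count of 7 without line 1, 6 without line 9 and 9 without wild-type array 1) and 4 of 55 rose (7.27%). OsPP2C01, which led the rises, was at 1612 and 1958 in OsYHB darkness, against 439.5 and 378.2 in wild-type darkness (log2 2.12, SE 0.14, adjusted p = 7.5e-05).

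Jasmonate and lipid oxidation genes fell in 12 of 38 cases (31.6%, with a count of 5 without line 1, 5 without line 9 and 6 without wild-type array 1), against 17.3% of all genes. OPR10, of the oxophytodienoate reductase family, was at 11.5 and 8.7 in OsYHB darkness, against 422.1 and 114.3 in wild-type darkness (log2 -4.46, SE 0.54, adjusted p = 0.00123). The allene oxide synthase gene AOS4 was at 181.8 and 157.7 in OsYHB darkness, against 2551 and 2279 in wild-type darkness (log2 -3.83, SE 0.24, adjusted p = 6.13e-05). In the same list 3 of 38 rose (7.89%, with a count of 2 with the 4 dark arrays alone), against 10.7% of all genes. CM-LOX1 rose by 2.22 (adjusted p = 0.0176) on the log2 scale. AOS2, of the same family as AOS4, rose by 0.84 (adjusted p = 0.0262). Neither was called with 16 added to each value. JAZ2, of the repressors of jasmonate responses, was the named gene with the widest gap between the lines, at 7.7 and 42.9 in OsYHB darkness, against 550.1 and 120.6 in wild-type darkness (log2 -3.82, SE 0.84, adjusted p = 0.0179). Its adjusted p was 0.0686 to 0.0851 without wild-type array 1 or line 1 and with the 4 dark arrays alone or an intensity trend. In the ethylene list 5 of 13 fell (38.5%, with a count of 3 without line 1, 2 without line 9 and 3 without wild-type array 1). Of these, ACO1, an ACC oxidase of ethylene synthesis, was at 1561 and 1487 in OsYHB darkness, against 5413 and 4386 in wild-type darkness (log2 -1.68, SE 0.17, adjusted p = 0.000503). The receptor gene ERS2 was at 75.1 and 80.5 in OsYHB darkness, against 164.4 and 144.4 in wild-type darkness (log2 -0.99, SE 0.16, adjusted p = 0.00495).

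Among transcription factors, OSH1 and HOS9 belong to the homeobox genes. Of 54 measured, 16 fell (29.6%, against 17.3% of all genes) and 2 rose (3.7%, with a count of 1 without line 9). HOS16 was at 11.4 and 10.8 in OsYHB darkness, against 102.5 and 40.4 in wild-type darkness (log2 -2.54, SE 0.35, adjusted p = 0.00245). HOX1 was at 233.7 and 251.2 in OsYHB darkness, against 845.4 and 597.9 in wild-type darkness (log2 -1.55, SE 0.17, adjusted p = 0.000646). ZHD10, a zinc finger homeodomain gene, was higher, at 382.5 and 365.7 in OsYHB darkness, against 239.8 and 191.9 in wild-type darkness (log2 0.80, SE 0.13, adjusted p = 0.0054). MADS50, an activator of flowering in rice and a relative of MADS56, was at 159.2 and 134.9 in OsYHB darkness, against 72 and 59.3 in wild-type darkness (log2 1.17, SE 0.14, adjusted p = 0.0013). Among basic leucine zipper genes, TGAL11 was at 16 and 11 in OsYHB darkness, against 73.5 and 38.7 in wild-type darkness (log2 -2.01, SE 0.30, adjusted p = 0.00321). BZIP23, an abscisic acid response factor in rice, was at 505.8 and 558.4 in OsYHB darkness, against 1575 and 1222 in wild-type darkness (log2 -1.38, SE 0.14, adjusted p = 0.000551). HAP3I and HAP3F, which encode B subunits of the NF-Y complex, rose by 1.57 (SE 0.20, adjusted p = 0.00164) and 1.24 (SE 0.17, adjusted p = 0.00222) on the log2 scale. NAC45 rose by 0.96 (SE 0.14, adjusted p = 0.00334), and YAB6, of the YABBY family of organ polarity genes, fell by 1.58 (SE 0.21, adjusted p = 0.00188).

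Wall and cytoskeleton genes that were called mostly fell. In the cellulose, wall matrix and pectin list 25 of 84 fell (29.8%), against 17.3% of all genes. The count was 11 without line 1, 6 without line 9 and 16 without wild-type array 1. PMEI8, an inhibitor of pectin methylesterase, was at 228.7 and 366.1 in OsYHB darkness, against 1955 and 2736 in wild-type darkness (log2 -2.999, SE 0.27, adjusted p = 0.000274). Of the expansins and xyloglucan enzymes, which loosen the wall during growth, 8 of 31 fell (25.8%, with a count of 5 without line 1 and 5 without line 9). EXP1 was at 39.6 and 26.8 in OsYHB darkness, against 355.6 and 356.6 in wild-type darkness (log2 -3.45, SE 0.20, adjusted p = 4.62e-05). EXP8 was at 8.3 and 6.4 in OsYHB darkness, against 32 and 39.1 in wild-type darkness (log2 -2.28, SE 0.16, adjusted p = 8.94e-05). The beta-expansin EXPB6 was at 587.9 and 553.3 in OsYHB darkness, against 1664 and 1863 in wild-type darkness (log2 -1.63, SE 0.27, adjusted p = 0.00508). In each of these the wild-type arrays were the high ones, as in every probe set called lower. Kinesin, formin, actin-depolymerising factor and tubulin genes fell in 19 of 64 cases (29.7%, with a count of 9 without line 1, 2 without line 9 and 11 without wild-type array 1). ADF-10 and ADF-11, both actin-depolymerising factors, went opposite ways, ADF-10 with a fall of 0.88 (SE 0.13, adjusted p = 0.00282) and ADF-11 with a rise of 0.95 (SE 0.14, adjusted p = 0.00296). Cell cycle and replication genes fell in 7 of 65 cases (10.8%), against 17.3% of all genes, with a median of -0.32. The count was 0 without line 9, where 7 had an unadjusted p below 0.05, and 17 without wild-type array 1. Beta-glucosidases split evenly, with 8 of 27 higher (29.6%, with a count of 5 without wild-type array 1) and 8 of 27 lower (29.6%, with a count of 4 without line 1 and 4 without line 9). BGLU31 was higher, at 396.3 and 456.4 in OsYHB darkness, against 157.4 and 122.2 in wild-type darkness (log2 1.62, SE 0.15, adjusted p = 0.000343), and BGLU6 lower, at 301.3 and 287.7 in OsYHB darkness, against 836.5 and 778.8 in wild-type darkness (log2 -1.45, SE 0.13, adjusted p = 0.000291).

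Heat shock and defence genes also split. Of the heat shock list 15 of 51 fell (29.4%, with a count of 9 without line 9) and 6 of 51 rose (11.8%, with a count of 3 without line 9), against 17.3% and 10.7% of all genes. The small heat shock protein gene HSP16.9A was at 37.3 and 33.8 in OsYHB darkness, against 296.1 and 259.1 in wild-type darkness (log2 -2.96, SE 0.15, adjusted p = 3.19e-05). CLPB1, a disaggregase, was at 10.4 and 11.4 in OsYHB darkness, against 99.3 and 60.9 in wild-type darkness (log2 -2.84, SE 0.23, adjusted p = 0.000167). HSP24.1 was higher, at 1789 and 1587 in OsYHB darkness, against 682.1 and 861.2 in wild-type darkness (log2 1.14, SE 0.15, adjusted p = 0.00188), as was the heat shock factor HSF11, at 31.2 and 28.1 in OsYHB darkness, against 11.7 and 13 in wild-type darkness (log2 1.26, SE 0.17, adjusted p = 0.00183). Protein disulfide isomerases and their partners in the endoplasmic reticulum fell in 6 of 20 cases (30%, with a count of 3 without line 1, 0 without line 9, where 6 had an unadjusted p below 0.05, and 2 without wild-type array 1). In the pathogenesis-related list 9 of 29 fell (31%, with a count of 5 without line 1, 4 without line 9 and 5 without wild-type array 1) and 4 of 29 rose (13.8%, with a count of 1 without line 9). Cht1, a chitinase, was at 48.6 and 31 in OsYHB darkness, against 735.4 and 338.2 in wild-type darkness (log2 -3.68, SE 0.42, adjusted p = 0.000889), while Cht11 of the same family was at 191.1 and 188.4 in OsYHB darkness, against 35.3 and 23.4 in wild-type darkness (log2 2.72, SE 0.44, adjusted p = 0.005). The germin-like gene GER1 was at 731 and 405.9 in OsYHB darkness, against 6425 and 4438 in wild-type darkness (log2 -3.29), and GER2 fell by 3.09 (SE 0.28, adjusted p = 0.00029) on the log2 scale. RBBI3.3, a Bowman-Birk protease inhibitor, was at 1796 and 1511 in OsYHB darkness, against 8750 and 8010 in wild-type darkness (log2 -2.35, SE 0.27, adjusted p = 0.000883). CAD6 and 4CL2, of the phenylpropanoid pathway, moved apart, CAD6 by -1.99 (SE 0.19, adjusted p = 0.000433) and 4CL2 by 1.89 (SE 0.14, adjusted p = 0.000123) on the log2 scale.

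Of the calcium sensor and kinase genes 6 of 79 fell (7.59%, with a count of 3 without line 1, 2 without line 9 and 13 without wild-type array 2) and 7 of 79 rose (8.86%), against 17.3% and 10.7% of all genes. CIPK5 and CIPK25, kinases activated by calcineurin B-like calcium sensors, rose by 2.19 (SE 0.26, adjusted p = 0.00113) and 1.43 (SE 0.16, adjusted p = 0.000767) on the log2 scale. CML11, a calmodulin-like gene, was lower, at 67.8 and 77 in OsYHB darkness, against 184.1 and 167.8 in wild-type darkness (log2 -1.28, SE 0.14, adjusted p = 0.000681). MAP kinase and receptor kinase genes fell in 7 of 27 cases (25.9%, with a count of 2 without line 1 and 1 without line 9). Of these, CERK, a chitin receptor kinase gene, was at 79 and 77 in OsYHB darkness, against 158.1 and 129.3 in wild-type darkness (log2 -0.87, SE 0.14, adjusted p = 0.00414).

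Of the transport genes called, most were lower. Of the iron, zinc, copper and other metal genes 15 of 65 fell (23.1%, with a count of 6 without line 1, 6 without line 9 and 9 without wild-type array 1), against 17.3% of all genes. ZIP3, a zinc transporter, was at 35.9 and 15.4 in OsYHB darkness, against 216.9 and 114 in wild-type darkness (log2 -2.74, SE 0.46, adjusted p = 0.00559). MT1B, a metallothionein, was at 706 and 452.8 in OsYHB darkness, against 4102 and 2441 in wild-type darkness (log2 -2.48, SE 0.31, adjusted p = 0.0015). NRAMP6, a metal transporter, was higher, at 522.8 and 632.6 in OsYHB darkness, against 264.1 and 322.5 in wild-type darkness (log2 0.98, SE 0.16, adjusted p = 0.0048). Aquaporins fell in 7 of 25 cases (28%, with a count of 3 without line 1 and 1 without line 9). Of these, TIP1 of the vacuolar membrane was at 19.9 and 39 in OsYHB darkness, against 199.9 and 101.9 in wild-type darkness (log2 -2.36, SE 0.36, adjusted p = 0.00361), while PIP2-7 was the only one called higher. SPX2, of the SPX proteins that sense phosphate status, was at 28.4 and 27.7 in OsYHB darkness, against 99.7 and 104.4 in wild-type darkness (log2 -1.86, SE 0.19, adjusted p = 0.000485). In the list of ABC transporters, lipid transfer proteins and CASP-like genes 11 of 40 fell (27.5%, with a count of 6 without line 1, 4 without line 9 and 6 without wild-type array 1). OsCASPL1D1 was at 99.3 and 50.3 in OsYHB darkness, against 1130 and 590 in wild-type darkness (log2 -3.53, SE 0.38, adjusted p = 0.000653), and ABCG42 was higher, at 892.6 and 954.6 in OsYHB darkness, against 430.7 and 445 in wild-type darkness (log2 1.08, SE 0.11, adjusted p = 0.000577). A second ABCG42 probe set was not called, at 348 and 368.4 in OsYHB darkness, against 403.2 and 325.5 in wild-type darkness (log2 -0.02, adjusted p = 0.952). The potassium transporter gene HAK17 rose and was at 232.4 and 245 in OsYHB darkness, against 65.5 and 65.3 in wild-type darkness (log2 1.87, SE 0.29, adjusted p = 0.00435).

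**Figure D3:**
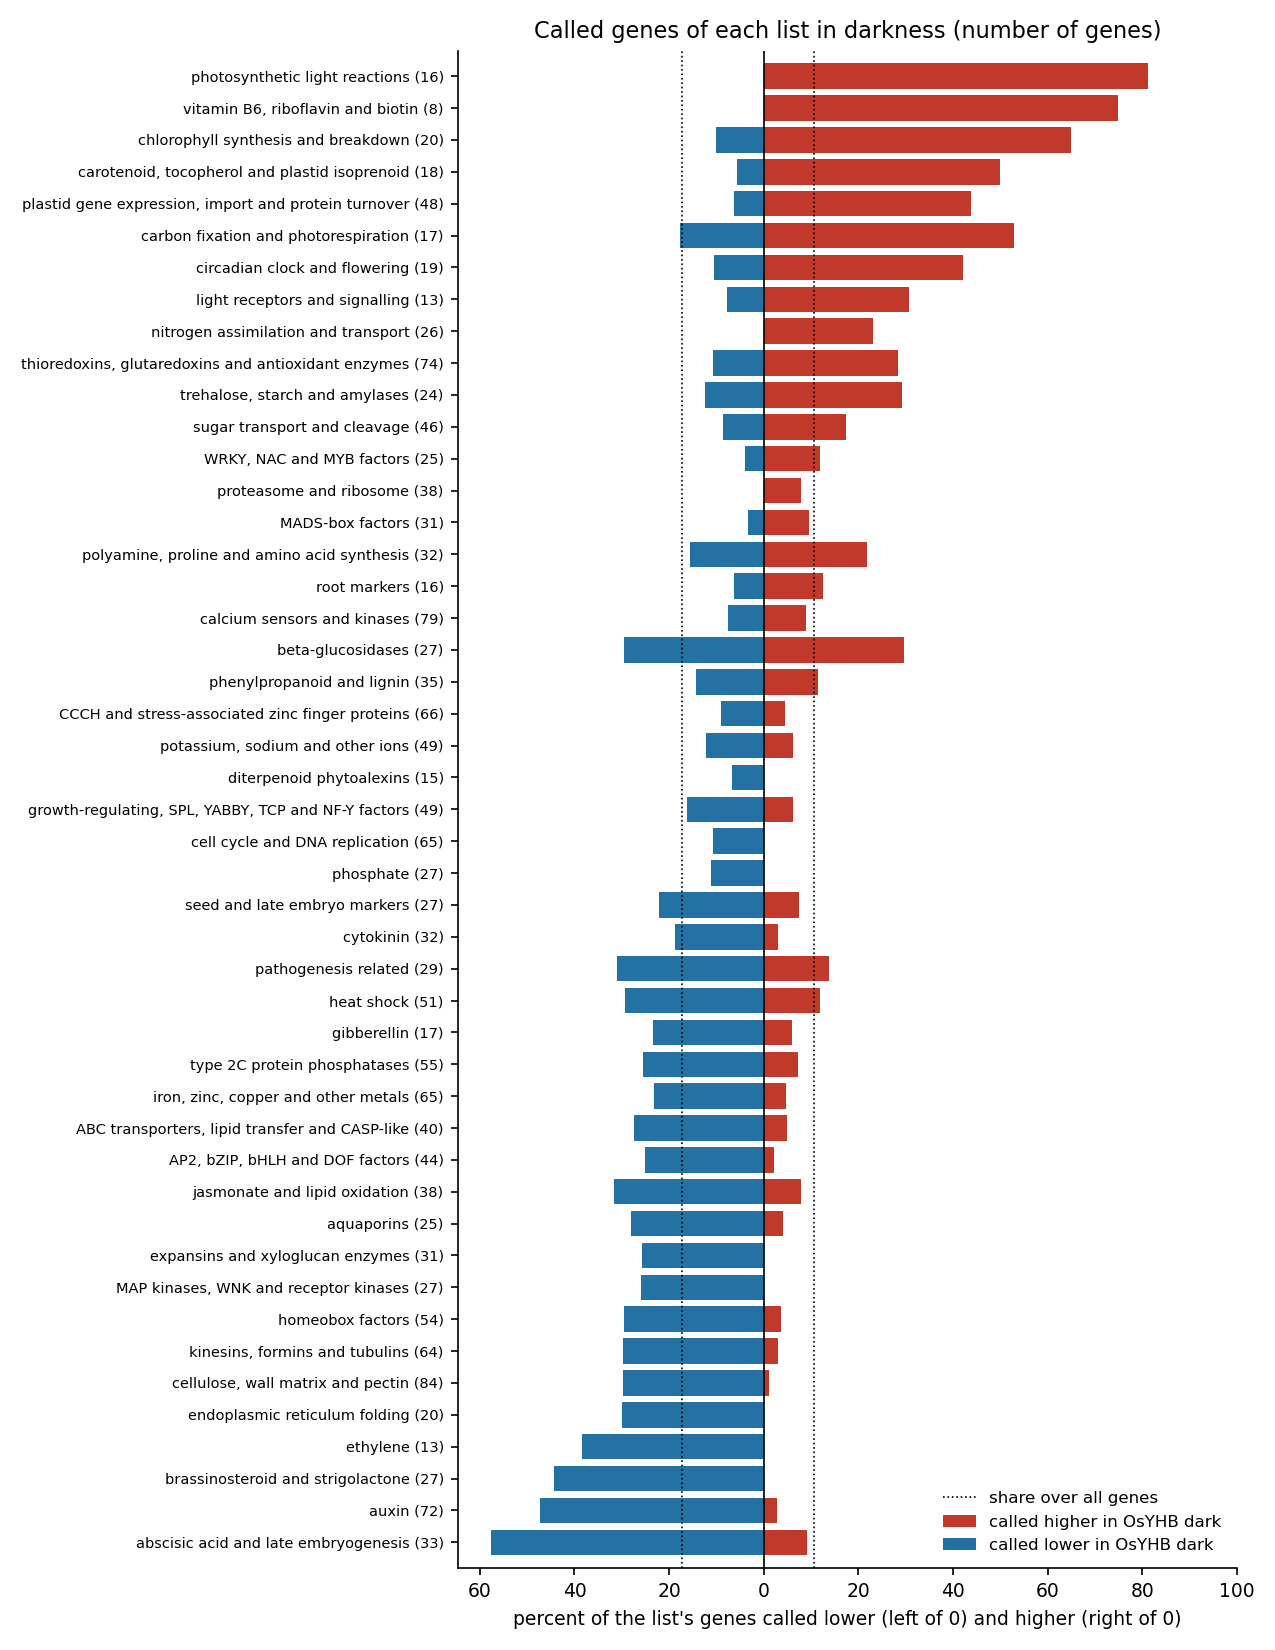
Percent of the genes of each of 47 lists called higher (red, right of 0) and lower (blue, left of 0) in OsYHB darkness against wild-type darkness. The number of genes is in parentheses, and lists are ordered by percent higher minus percent lower. Dotted lines mark the shares over all genes, 10.7% higher and 17.3% lower; light reactions (81.2% higher) and abscisic acid genes (57.6% lower) are at the ends.

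Summed over the list, root markers overlapped between the groups and seed markers did not. The 16 root markers summed to 1379 and 1565 in OsYHB darkness, against 1568 and 1147 in wild-type darkness. Of these, 2 of 16 rose (12.5%, with a count of 1 without line 9) and 1 of 16 fell (6.25%, with a count of 0 without line 9, where 2 had an unadjusted p below 0.05, and 6 without wild-type array 2), against 10.7% and 17.3% of all genes. The silicon transporter gene Lsi1 was at 568.4 and 642.6 in OsYHB darkness, against 943.1 and 655.2 in wild-type darkness (log2 -0.38, adjusted p = 0.172). The 27 seed and late embryo markers summed to 1807 and 1884 in OsYHB darkness, against 3632 and 2621 in wild-type darkness, without overlap. Of these, 6 of 27 fell (22.2%, with a count of 1 without line 1, 1 without line 9, 2 without wild-type array 1 and 3 without wild-type array 2) and 2 of 27 rose (7.41%, with a count of 1 without line 1 and 1 without line 9). The median change of the list was 0.03, with 14 of 27 genes above 0. In wild-type darkness PXG and RAB21 made up much of the sum, and RAB21 and LEA19 are members of this list as well as of the abscisic acid list. PXG, an oil body peroxygenase gene of seeds, was at 192.9 and 208.9 in OsYHB darkness, against 1190 and 724.6 in wild-type darkness (log2 -2.21, SE 0.25, adjusted p = 0.000861). The storage protein gene GLUA-1 was dim, at 4.4 and 4.2 in OsYHB darkness, against 4.3 and 5.7 in wild-type darkness. GLUB-5, another storage protein gene, was called higher in OsYHB darkness (log2 0.62, adjusted p = 0.0174). With the 4 dark arrays alone its adjusted p was 0.0505. The part of remaining seed tissue in the fall of the abscisic acid genes was not tested.

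Both lines lay on the same side of wild type in every called probe set, and line 9, with the lower overexpression, was at the median the farther one. The median distance of the probe sets called higher from the wild-type dark mean was 0.82 in line 1 and 0.92 in line 9, and that of the probe sets called lower was -0.65 and -0.72. Line 1 was the farther line in 30.2% of the higher and 34.8% of the lower calls. These are single arrays per line and the calls were made on them, so the figures describe the group and test nothing. The median gap of a probe set between the lines was 0.143, against 0.188 between the wild-type dark arrays. A gap of at least 1 was found in 296 probe sets between the lines and in 795 between the wild-type arrays.

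**Figure D4:**
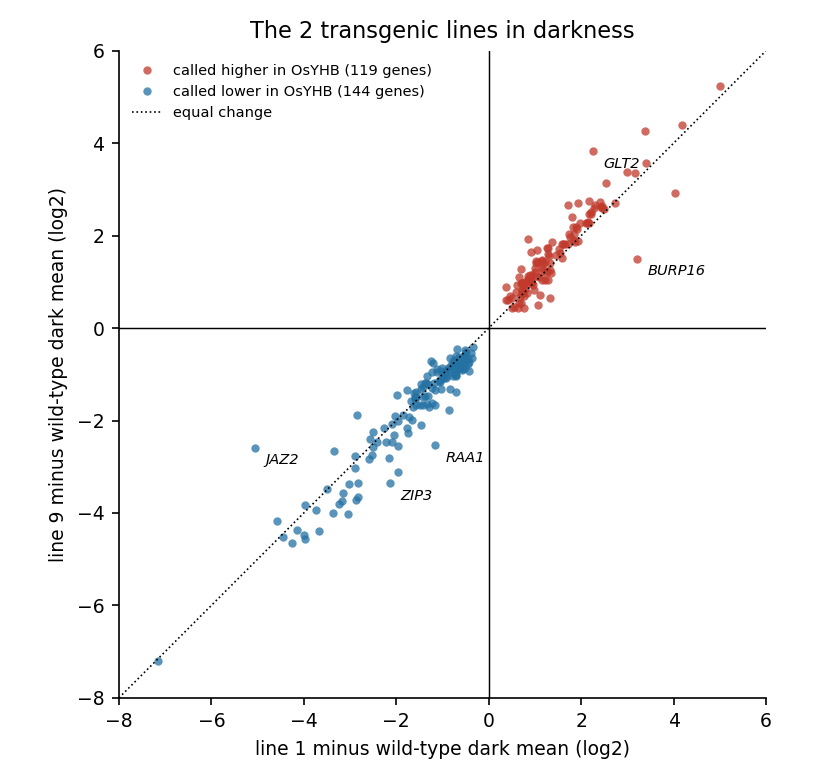
Log2 intensity minus the wild-type dark mean in line 1 (horizontal axis) and line 9 (vertical axis) for the 263 of 273 genes chosen by the naming rule that were called in darkness, 119 higher (red) and 144 lower (blue); the dotted line marks equal change. The labelled genes are those farthest from the line, such as JAZ2, which was at 7.7 in line 1 and 42.9 in line 9.

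In red light few probe sets were called between the same genotypes. Of 57194 probe sets, limma called 9 between OsYHB and wild type in red light (0.0157%), 4 higher (0.00699%) and 5 lower (0.00874%), and 4346 had an unadjusted p below 0.05. The count was 39 without either wild-type dark array, 3 without either OsYHB dark array and 0 without wild-type red-light array 2 or without line 9 in red light, where 2440 and 3906 had an unadjusted p below 0.05. The probe sets called higher in darkness had a median change of 0.10 in red light against 0.86 in darkness, and those called lower had -0.08 against -0.69. The dark values chose these probe sets, so their medians in darkness are a description, and the red light arrays entered their choice only through the shared estimate of spread. PDX12 was at 1113 and 1158 in OsYHB red light, against 857.3 and 871.3 in wild-type red light (log2 0.39, SE 0.29, adjusted p = 0.764). ILL3 was at 12.5 and 13.4 in OsYHB red light, against 28.6 and 14.6 in wild-type red light (log2 -0.66, SE 0.29, adjusted p = 0.658). PDX12 was bright and ILL3 dim in every red light array of either genotype. EXP1 was at 44.5 and 34.1 in OsYHB red light, against 47.9 and 44.8 in wild-type red light (log2 -0.25), and NIA1 at 1305 and 1400 in OsYHB red light, against 1413 and 2102 in wild-type red light (log2 -0.35).

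The difference between the dark and the red light change was tested as an interaction, which was called for 2414 probe sets (4.22%), 878 higher (1.54%) and 1536 lower (2.69%). The count was 979 without line 9 in darkness, 1377 and 809 without wild-type red-light array 1 and 2, and 1266 and 1136 without line 1 and line 9 in red light. It was called for 124 of the 273 genes chosen by the naming rule, a rule that takes account of the interaction, and for 7.83% of all genes. PDX12 had -4.73 (SE 0.41, adjusted p = 0.00117) and ILL3 had 6.53 (SE 0.41, adjusted p = 0.000358). The ferredoxin-NADP reductase gene LFNR1 had an interaction of -2.02 (SE 0.18, adjusted p = 0.0012), and GLO5 one of -2.98 (SE 0.21, adjusted p = 0.000612). Among the genes that fell in darkness, IAA20 had 2.81 (SE 0.25, adjusted p = 0.0012) and EXP1 had 3.2 (SE 0.28, adjusted p = 0.0012). A positive value means that the change in red light was the more positive one. For OPR10 the interaction was not called, at 0.94 (SE 0.76, adjusted p = 0.543), with a change in red light of -3.52 (SE 0.54, adjusted p = 0.184). The change of wild type itself from darkness to red light, which shares the wild-type dark arrays, was 4.39 for PDX12, -6.93 for ILL3, 2.89 for NIA1 and -2.94 for EXP1 on the log2 scale.

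**Figure D5:**
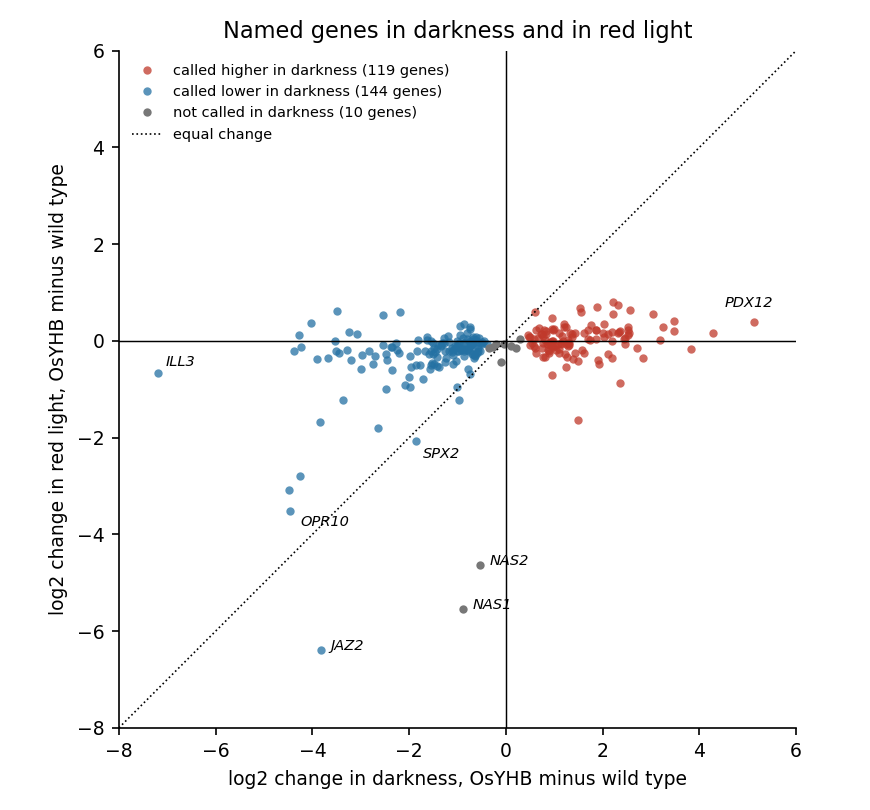
Log2 change of the 273 named genes in red light (vertical axis, OsYHB minus wild type) against that in darkness (horizontal axis, OsYHB minus wild type), with genes called higher in darkness in red, called lower in blue and not called in grey; the dotted line marks equal change. Most points lie near 0 on the vertical axis, while SPX2 lies near the dotted line, and NAS1 and NAS2 were not called in darkness.

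A few transcripts differed in both light conditions. SPX2 was at 39.1 and 28 in OsYHB red light, against 159.9 and 121 in wild-type red light (log2 -2.07, SE 0.19, adjusted p = 0.0302), close to its change of -1.86 in darkness. A probe set without an annotated gene was at 434.1 and 1428 in OsYHB darkness, against 17.8 and 15.5 in wild-type darkness (log2 5.57, SE 0.54). In red light it was at 413.0 and 979.7 in OsYHB, against 12.4 and 10.4 in wild type, and line 9 was the higher line in both conditions. Another without a gene was at 5.1 and 7.0 in OsYHB darkness, against 317.6 and 111.5 in wild-type darkness (log2 -4.98, SE 0.48), and at 7.1 and 5.7 in OsYHB red light, against 415.9 and 204.1 in wild-type red light. The nicotianamine synthase gene NAS2, which serves iron uptake, differed in red light and was not called in darkness. It was at 16.9 and 14.6 in OsYHB red light, against 305.5 and 492.9 in wild-type red light (log2 -4.63, SE 0.38, adjusted p = 0.0293), and at 16.6 and 14.8 in OsYHB darkness, against 35.8 and 14.5 in wild-type darkness (log2 -0.54, adjusted p = 0.379). Its change in darkness was -1.19 (adjusted p = 0.0244, called) without wild-type array 2 and 0.11 (adjusted p = 0.833) without wild-type array 1.

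The largest rise and the largest fall of all belonged to probe sets without an annotated gene. The rise was 7.39 (SE 0.25, adjusted p = 9.82e-06), with 594.9 and 539.7 in OsYHB darkness, against 3.1 and 3.7 in wild-type darkness. In red light this probe set was at 421.4 and 258.7 in OsYHB, against 315.7 and 219.9 in wild type. The fall was -8.66 (SE 0.22, adjusted p = 5.45e-06), with 7.1 and 7.1 in OsYHB darkness, against 3692 and 2229 in wild-type darkness, and it was at the dim end in all red light arrays. A second fall of -7.08 (SE 0.32, adjusted p = 2.3e-05) had 33.5 and 16.2 in OsYHB darkness, against 3667 and 2717 in wild-type darkness. These transcripts have no name in the tables used here.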

How the data were processed

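Above-ground tissue of rice seedlings was hybridised to Affymetrix arrays, 1 per sample. The authors deposited linear intensity values per probe set, and per the submitters' processing notes GCOS, RMA and limma were used, with versions and settings not given in the sources used here. From these intensities log2 values were taken with no further normalization. Of 57381 probe sets, 123 controls and 64 reporter probe sets were left out. limma 3.58.1 in R 4.3.3 was fitted to 57194 probe sets on 8 arrays with 4 group means (4 residual and 4.272 prior degrees of freedom), with two-sided tests, Benjamini-Hochberg adjustment over all probe sets and calls at an adjusted p below 0.05. The fit was tested on simulated data. All other steps used Python 3.11.15 with pandas 2.3.3, and figures matplotlib 3.10.9.

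The platform annotation gave 22436 probe sets 1 gene, 95 several and 34663 none. Each of 17905 genes was represented by its brightest probe set, and 2457 had a RefSeq name. Gene lists and members were chosen with earlier results of these data known. Named genes are those of the light receptor list, the largest changes over all named genes (20 in each direction), in each list (up to 4 in each direction), in the interaction (5 in each direction) and between the lines (5), and the leading probe sets without a gene. RBCS, RBCS1, RCAA1, CAB2R, Lsi1, OsCASP1 and GLUA-1 were added as tissue checks with their values known. A planned count of promoter motifs was not run, since no promoter sequence was used here. The number of arrays limits the precision.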

Additional observations from a re-analysis of the deposited data

Results flagged for a closer look

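The dark and the red light change of OsYHB against wild type differed in 2414 probe sets by the interaction test of limma, and in 124 of the 273 genes that the naming rule covers. A positive interaction means that the change in red light was the more positive one. Among the named genes the most positive interactions on the log2 scale were 6.53 for the auxin conjugate hydrolase gene ILL3, 4.40 for OSH1, 4.39 for ABCG45, 4.16 for GH3.2 and 4.10 for HOS9, all of which were lower in OsYHB than in wild type in darkness. The most negative were -4.73 for PDX12, -4.66 for NAS1, -4.12 for CFBP1, -4.09 for NAS2 and -3.99 for BGLU22. Of these, PDX12, CFBP1 and BGLU22 were higher in OsYHB darkness, while NAS1 and NAS2, the nicotianamine synthase genes, were not called in darkness (adjusted p = 0.412 and 0.379); without wild-type dark array 2 both were called there (log2 -2.09 and -1.19, adjusted p = 0.0185 and 0.0244).

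A reporter probe set outside the tests, which carries no gene name here, was 10.11 higher in OsYHB than in wild type in darkness on the log2 scale. Its log2 intensities were 13.18 and 12.90 in OsYHB darkness, against 3.02 and 2.85 in wild-type darkness, and 13.26 and 13.02 in OsYHB red light, against 2.98 and 2.98 in wild-type red light. Which construct sequence it detects is not given in the sources used here.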

How the results depend on the processing

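In darkness the 9713 calls (4404 higher, 5309 lower) of 57194 probe sets became 4885 (2617 and 2268) with the 4 dark arrays alone. A refit with 1 probe set per gene called 6105 (2096 and 4009) of 17905, where the main fit had called 5006 genes. The 9713 calls became 3043 (1775 and 1268) with at least a 2-fold change and 3913 (2185 and 1728) at an adjusted p of 0.01. The stricter thresholds reduce counts by construction. Leaving out each array in turn gave 3644 to 9820 calls, 2069 to 4413 higher and 1575 to 5407 lower, with the lowest counts without line 9. Quantile normalization gave 8741 calls, median centring 10072, 16 added to each value 10741 and an intensity trend 10176. The brighter probe sets alone gave 10298 of 28597. In red light the 9 calls (4 higher, 5 lower) became 0 (0 and 0) with 16 added to each value, with the brighter probe sets alone and with 1 probe set per gene, where limma gave 4610, 2487 and 1309 probe sets with an unadjusted p below 0.05. Leaving out each array gave 0 to 39 calls in red light, 0 to 11 higher and 0 to 28 lower. The 2414 interaction calls (878 higher, 1536 lower) were 809 to 3303 without each array in turn, 225 to 1488 higher and 584 to 1815 lower, and with 16 added to each value 2905, of which 1403 were higher. The cause of these shifts was not tested. Of the 263 called named genes, 153 kept their call in all settings that held them, 110 lost it in at least 1, and none turned its direction. Calls were lost for 103 of these genes without line 9, 54 without line 1, 55 and 32 without wild-type dark array 1 and 2, and 56 with the 4 dark arrays alone. The median of 4 gene lists near 0 turned sign or reached 0 under quantile normalization, from -0.04 to 0.00 for sugar transport, -0.00 to 0.08 for WRKY, NAC and MYB factors, -0.01 to 0.01 for redox genes and -0.03 to 0.01 for amino acid synthesis.

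Replicate numbers name transgenic lines in OsYHB and carry no such meaning in wild type, so they do not pair the dark groups. Deviations of same-numbered arrays correlated at 0.00332 between the dark groups and at 0.145 between OsYHB darkness and OsYHB red light. With the replicate number as a block there were 8361 calls in darkness (3882 higher, 4479 lower), 17 in red light (5 higher, 12 lower) and 2083 for the interaction. The number of arrays limits the precision, and dim probe sets have changes that background can compress.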

Other observations

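Sulphur and amine metabolism held further changes in both directions. In the list of polyamine, proline and amino acid synthesis 7 of 32 rose (21.9%, with a count of 4 without line 1, 2 without line 9 and 4 without wild-type array 1) and 5 of 32 fell (15.6%, with a count of 1 without line 9 and 3 without wild-type array 1), against 10.7% and 17.3% of all genes. SAT1, of the serine acetyltransferases that lead to cysteine, was at 3072 and 2957 in OsYHB darkness, against 1196 and 534.1 in wild-type darkness (log2 1.92, SE 0.34, adjusted p = 0.00769), with an adjusted p of 0.0532 without line 9. A dimmer second probe set of SAT1 was called lower, at 30 and 29.6 in OsYHB darkness, against 79.9 and 43.6 in wild-type darkness (log2 -0.99, adjusted p = 0.0377), so the direction of this gene is uncertain. SAT2, of the same family, was at 677 and 794.7 in OsYHB darkness, against 393.1 and 412.1 in wild-type darkness (log2 0.87, SE 0.13, adjusted p = 0.00358). In the phenylpropanoid and lignin list 4 of 35 rose (11.4%, with a count of 2 without line 9) and 5 of 35 fell (14.3%, with a count of 2 without line 1, 2 without line 9, 2 without wild-type array 1 and 8 without wild-type array 2), shares close to those of all genes. CAD3, of the cinnamyl alcohol dehydrogenases, was at 784.6 and 752.6 in OsYHB darkness, against 206.9 and 334.9 in wild-type darkness (log2 1.55, SE 0.23, adjusted p = 0.00358). Diterpenoid phytoalexin genes, which serve defence in rice, were called in 1 of 15 cases (6.67%, with a count of 0 without line 1, where 1 had an unadjusted p below 0.05, and 0 without wild-type array 2, where 1 had an unadjusted p below 0.05).

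Factors of the AP2, bZIP, bHLH and DOF families fell in 11 of 44 cases (25%), against 17.3% of all genes. The count was 6 without line 1, 3 without line 9 and 4 without wild-type array 1. The helix-loop-helix gene bHLH081 was at 59.9 and 66.8 in OsYHB darkness, against 169.1 and 152.4 in wild-type darkness (log2 -1.34, SE 0.16, adjusted p = 0.00123). Growth-regulating, SPL, YABBY, TCP and NF-Y factors fell in 8 of 49 cases (16.3%, with a count of 2 without line 9), near the share of all genes, among them GATA15, which fell by 1.004 (SE 0.15, adjusted p = 0.00297) on the log2 scale. Zinc finger genes of the CCCH and stress-associated families fell in 6 of 66 cases (9.09%, with a count of 2 without line 9), below the share of all genes, and OsC3H12 was higher, at 1470 and 1822 in OsYHB darkness, against 743.2 and 593.6 in wild-type darkness (log2 1.301, SE 0.16, adjusted p = 0.00148). In the WRKY, NAC and MYB list 3 of 25 rose (12%, with a count of 1 without line 1, 5 without wild-type array 1 and 1 without wild-type array 2), and in the MADS-box list 3 of 31 rose (9.68%, with a count of 5 without wild-type array 1), against 10.7% of all genes. Of the proteasome and ribosome genes 3 of 38 rose (7.89%, with a count of 1 without line 1, 1 without line 9 and 1 without wild-type array 1), below the share of all genes, with CL27 higher by 0.74 (SE 0.11, adjusted p = 0.00363) on the log2 scale. In the phosphate list 3 of 27 fell (11.1%, with a count of 1 without line 9 and 5 without wild-type array 2), and in that of potassium, sodium and other ions 6 of 49 fell (12.2%, with a count of 1 without line 1, 1 without line 9 and 3 without wild-type array 1), both below the 17.3% of all genes.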
